A study of Mus musculus with 9 samples.

Results

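The genes of oxidative phosphorylation were followed across skin of 4 mouse genotypes, as 87 of the 12393 genes that had a probe set naming 1 gene alone. They were taken by symbol, as every gene whose name starts with Nduf, Sdha, Sdhb, Sdhc, Sdhd, Uqcr, Cox4, Cox5, Cox6, Cox7, Cox8 or Atp5. The 87 genes were read by 160 probe sets and comprised 78 subunits and 9 other genes, namely 8 assembly factors and Cox7a2l. By complex there were 39 genes of complex I, 7 of complex II, 8 of complex III, 16 of complex IV and 17 of complex V. Ndufa4l2 had no probe set that named it alone, and 8 probe sets that name a gene of these families together with others were left out.

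RNA came from whole skin at 30 days of age, from mice of a mixed C57BL, DBA and FVB background, and each of 9 Affymetrix arrays received 1 RNA pool. The transgenic lines were L60, L84 and LA (n = 2 pools each) and the controls were LC (n = 3 pools). Akt, a kinase downstream of growth factor receptors, is constitutively active in the mice that the series title refers to, and the title links it to ectodermal defects and weaker BMP signals. The labels do not give the promoter, the dose of transgene by line, how the lines differ or how many mice made up a pool, so p-values measure only the spread between these pools. The deposited value is a score, standardised for each probe set to mean 0 and SD 1 over the 9 arrays, so a difference is in SDs and carries neither a level nor a fold. For the same reason the presence of skin markers at a level above background could not be checked.

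Oxidative phosphorylation takes place in the inner membrane of mitochondria. Complexes I and II feed electrons from NADH and succinate to ubiquinone, complex III passes them to cytochrome c, complex IV reduces oxygen, and complex V uses the proton gradient built by I, III and IV to make ATP. Nearly all subunits are encoded in the nucleus, and several subunits of complex IV come in tissue forms, some typical of striated muscle. In skin, proliferating hair matrix and epidermal cells rely much on glycolysis, while muscle fibres under the dermis are rich in mitochondria.

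Some arrays stood apart. Probe sets for 18S ribosomal RNA had mean scores of 2.09 on L60 1, 0.339 on L84 1 and 1.13 on LC 1, against -0.642 to -0.528 on the other arrays. Control probe sets for the start and the end of Gapdh transcripts were lowest on LC 1 (-1.64 and -1.49) and L60 1 (-1.47 and -1.81). On the other arrays they ran from -0.306 to 1.15 and from 0.179 to 1.11, except 0.102 for the end on LC 2. Those for the start of Actb scored -1.93 on LC 1 and -0.824 on L60 1, against -0.560 to 1.11 elsewhere. What these scores owe to RNA quality was not tested. Over all probe sets the SD of the scores was highest on LA 2 (1.31), and L84 1 came next (1.20). Several results below are also given without these arrays, or with the score of each array.

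Most oxidative phosphorylation genes scored lower in LA skin than in LC skin, and the L60 and L84 pools lay on both sides of the LC pools. Averaged over the 87 genes, the score was -0.213 and -1.29 on the LA arrays, -0.186 and 0.415 on the L60 arrays, 0.873 and -0.327 on the L84 arrays, and 0.0593, 0.318 and 0.355 on the LC arrays. Both LA arrays lay below all LC arrays, whereas the arrays of L60 and of L84 fell on both sides of the LC range. The group means were -0.753 ± 0.763 in LA, 0.114 ± 0.425 in L60, 0.273 ± 0.849 in L84 and 0.244 ± 0.161 in LC (SD over arrays, n = 2, 2, 2 and 3). The pools of 1 line differed from each other by more than the LC pools did. The array LA 2 held the lowest of the 9 scores in 62 of the 87 genes, against 20.3% of all genes, and L84 1 held the highest score in 46, against 21.3% of all genes.

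**Figure D1:**
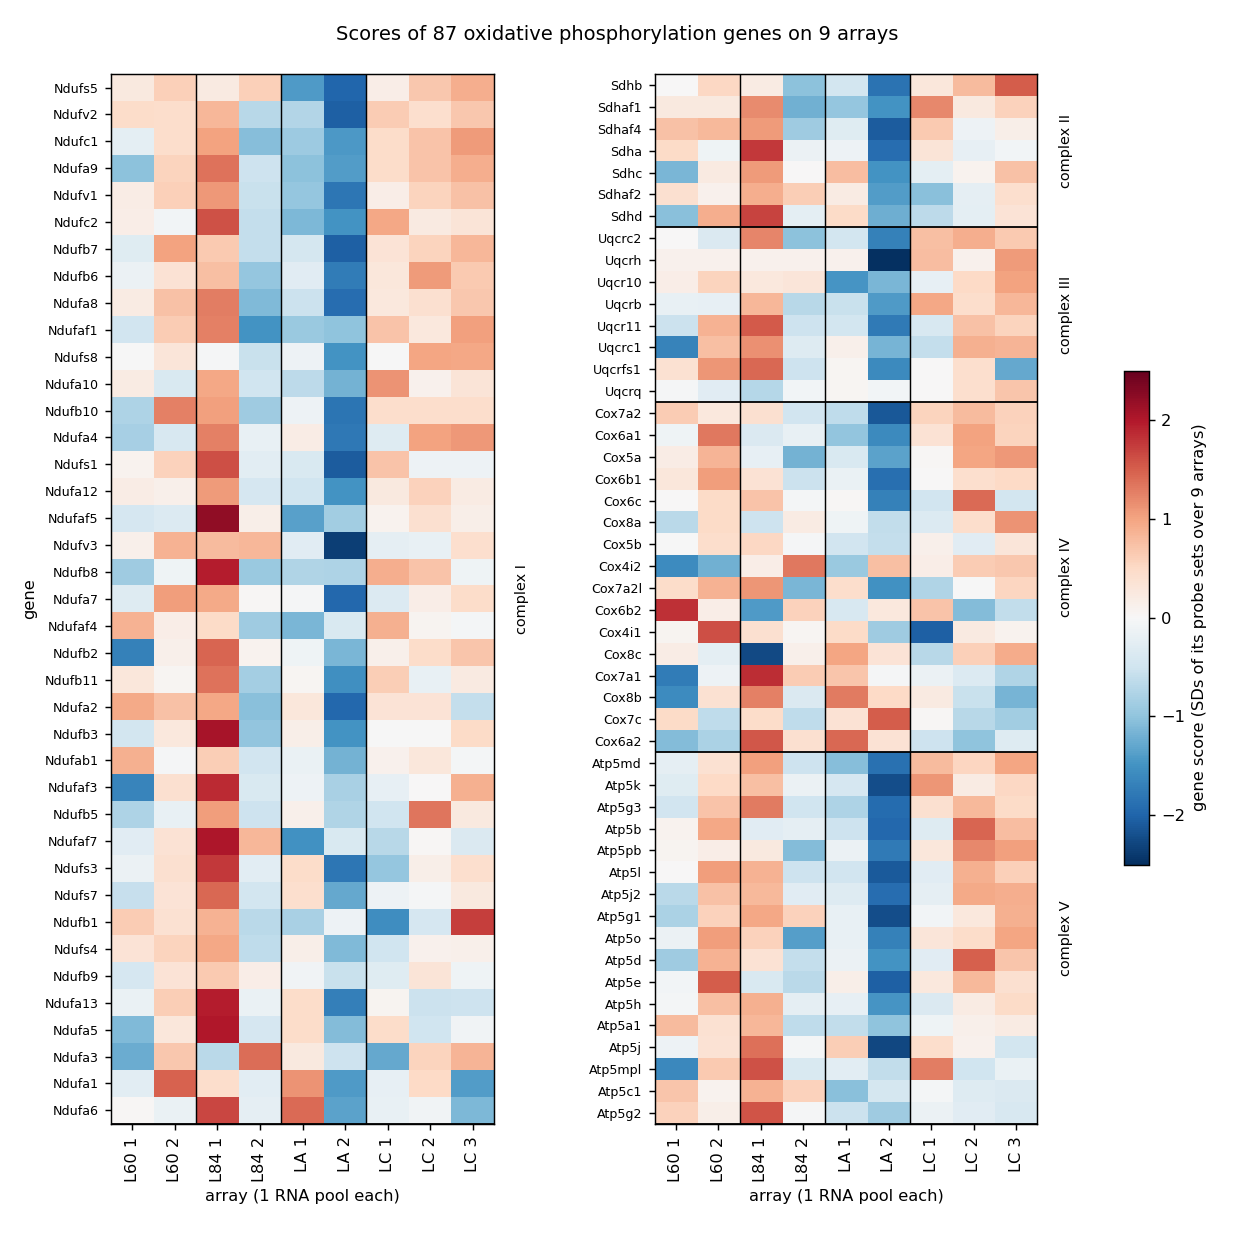
Scores of the 87 genes (rows, grouped by complex and ordered within each by the difference of LA from LC) on 9 arrays (columns), blue below and red above the gene's mean, in SDs. The LA 2 column is blue in 81 of 87 genes and the L84 1 column red in 77, and the muscle and testis isoforms near the foot of complex IV do not follow the other rows.

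Against LC, 78 of the 87 genes (89.7%) scored lower in LA, where 43.9% of all genes did. The median difference was -1.06 over the 87 genes and 0.25 over all genes. With array medians set to 0, these medians were -1.20 and 0.11. In 46 of the 87 genes (52.9%) both LA arrays lay below all LC arrays, compared with 21% of all genes, and in 4 genes (4.60%) both lay above, compared with 27.8% of all genes. The median of the genes' differences was -0.53 for LA 1 alone, with 66 of 87 lower, and -1.70 for LA 2 alone, with 80 of 87 lower. Set against LC 2 and LC 3, without the control array high in 18S, the LA median was -1.18 and 80 of 87 genes scored lower.

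Few single genes passed the test. At a Benjamini-Hochberg adjusted p under 0.05 in limma, with p-values adjusted over all 12393 genes, 1 of the 87 genes was called in LA, a share of 1.15% against 1.8% of all genes called in either direction and 0.984% called lower. The gene was Ndufs5, lower in LA. At an unadjusted p under 0.05 the count was 19 of 87 (21.8%), against 20.8% of all genes. The share of single genes called was therefore near that of all genes, while the direction was mostly the same among the 87 genes. With limma's moderated variance 0 of the 87 genes and 0% of all genes were called, and 31 of the 87 had an unadjusted p under 0.05, against 26% of all genes.

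In L60, 54 of the 87 genes (62.1%) scored lower than in LC, against 45.2% of all genes, with a median difference of -0.15 against 0.08 over all genes. None was called in limma, where 0% of all genes were called, and 1 had an unadjusted p under 0.05, against 4.72% of all genes. Arrays lay apart below LC in 11 genes, against 10.8% of all genes, and above LC in 6, against 14.4%. The sign of the median turned with the array, at -0.44 for L60 1 and 0.24 for L60 2.

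In L84, 44 of the 87 genes (50.6%) scored lower than in LC, against 49.9% of all genes, and the median difference was -0.00192 against 0.00308 over all genes. None was called in limma, against 0.565% of all genes, and 4 had an unadjusted p under 0.05, against 12.2% of all genes. Arrays lay apart below LC in 8 genes, against 14.7% of all genes, and above LC in 7, against 13.8%. The near-zero median came from pools that lay on opposite sides of LC, with a median of 0.69 and 68 of 87 genes higher on L84 1, and -0.61 and 69 of 87 lower on L84 2. With limma's moderated variance 0 of the 87 genes and 0% of all genes were called in L60 or L84. The number with an unadjusted p under 0.05 was then 1 in L60, against 3.75% of all genes, and 3 in L84, against 12.6% of all genes. The 3 comparisons with LC share the same 3 control arrays.

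**Figure D2:**
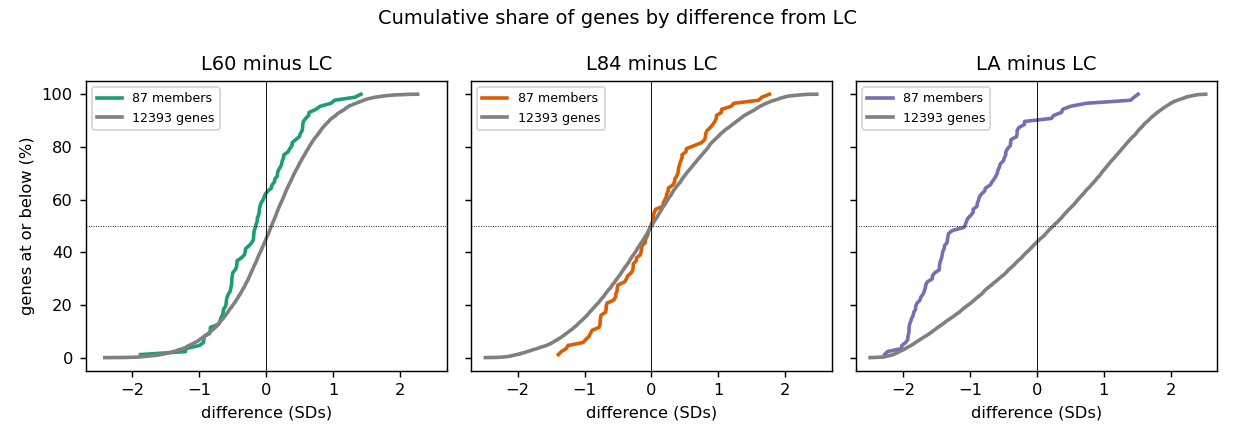
Cumulative share of genes (vertical axis, percent) at or below a difference from LC (horizontal axis, SDs), for the 87 oxidative phosphorylation genes in colour and all 12393 genes in grey, with 1 panel each for L60, L84 and LA. In LA the coloured curve crosses the middle of the vertical axis at -1.06 and the grey curve at 0.25, while the L84 curves cross it together near 0.

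Promoter sequence was taken from the RefSeq annotation of GRCm38.p6, as the window from 250 bases before to 50 bases after the start of a gene, which was on hand for 73 of the 87 genes. All 87 symbols matched a RefSeq gene. Motifs were searched on both strands. A match to the near-palindrome of nuclear respiratory factor NRF1, of which the capitals in Ndufs5 and Cox6a1 below give the letters, stood in 21.9% of the 73 windows and in 4.78% of 27025 windows of all genes. The letters CCGGAAG of GABPA, the DNA-binding part of a second nuclear respiratory factor, stood in 26% against 9.12%. AANATGGC of YY1 was found in 20.5% against 6.23%, and TNAAGGTCA of ERRalpha in 2.74% against 1.26%. Motifs of muscle genes were not more frequent, with the motif of MEF2 in 2.74% against 3.7% and the E box CAGCTG in 8.22% against 16.1%. TATAAA, the TATA box, was found in 9.59% against 14.2%. A match is a run of letters and no evidence of binding.

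The promoter windows of Ndufs5, the gene called in LA, and of Sdhb, whose difference of LA from LC was -2.02, are shown here as examples of windows with motifs of the nuclear respiratory factors. They were chosen after their values were seen. Capitals mark CAGCTG and, nearer the start, the NRF1 motif in Ndufs5 (chr4:123718137-123718436, minus strand) and CCGGAAG in Sdhb (chr4:140961021-140961320, plus strand), and no marked motifs overlap.
Ndufs5: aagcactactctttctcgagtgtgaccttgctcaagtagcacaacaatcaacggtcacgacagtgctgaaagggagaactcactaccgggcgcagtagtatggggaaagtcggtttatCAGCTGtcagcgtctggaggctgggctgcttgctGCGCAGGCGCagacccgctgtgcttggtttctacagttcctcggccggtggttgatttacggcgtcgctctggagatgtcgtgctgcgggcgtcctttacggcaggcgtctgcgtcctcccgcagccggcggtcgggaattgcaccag
Sdhb: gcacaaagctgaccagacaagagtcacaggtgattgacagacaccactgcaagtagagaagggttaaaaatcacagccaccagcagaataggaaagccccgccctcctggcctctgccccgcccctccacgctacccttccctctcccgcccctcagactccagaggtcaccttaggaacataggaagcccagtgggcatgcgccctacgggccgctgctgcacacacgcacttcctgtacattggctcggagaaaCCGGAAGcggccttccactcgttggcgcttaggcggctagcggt

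Complex I, which oxidises NADH, scored lower in LA than in LC in 37 of its 39 genes, assembly factors included. The median difference was -1.09. LA arrays lay below all LC arrays in 21 genes, against 21% of all genes, and above them in none, against 27.8%. Without LA 2 the median was -0.54, with 30 of 39 lower. Ndufs5, an accessory subunit on the intermembrane face whose promoter window is printed above, was the gene called. It scored -1.41 and -1.98 in LA, 0.239 and 0.592 in L60, 0.227 and 0.597 in L84, and 0.171, 0.664 and 0.900 in LC. The 2 LA pools stood apart from all 7 other pools, among which the groups overlapped. The difference of LA from LC was -2.27 ± 0.31 SDs (SE, adjusted p = 0.0445 in limma). That of L60 was -0.16 ± 0.31 and that of L84 -0.17 ± 0.31. The call rested on every array, since leaving out any 1 array of the 9 gave an adjusted p of 0.0564 to 0.186 at a difference of -2.55 to -1.99.

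The electron-carrying core of complex I followed the same direction in LA without passing the test. Ndufv1, the flavoprotein that oxidises NADH, scored -0.969 and -1.81 in LA against 0.171, 0.562 and 0.740 in LC (-1.88 ± 0.57, adjusted p = 0.166). Ndufv2, an iron-sulphur subunit of the same module, scored -0.729 and -2.04 in LA against 0.632, 0.417 and 0.679 in LC (-1.96 ± 0.59, adjusted p = 0.162). In both genes the LA arrays lay below all 7 other arrays. Ndufs1, the large iron-sulphur subunit, scored -0.378 and -2.08 in LA against 0.721, -0.136 and -0.136 in LC (-1.38 ± 0.80, adjusted p = 0.374). Ndufs8, an iron-sulphur subunit read by 6 probe sets, scored -0.135 and -1.49 in LA against -0.0194, 0.984 and 0.961 in LC (-1.45 ± 0.54, adjusted p = 0.227). Its L84 arrays, at -0.0348 and -0.549, also lay below all LC arrays (-0.93 ± 0.54, adjusted p = 0.579). On L84 1 the score lay just below that of LC 1, and its probe sets there ran from -2.48 to 1.12.

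Among accessory subunits, Ndufa9, which sits at the joint of both arms of the complex, scored -1.03 and -1.39 in LA against 0.453, 0.708 and 0.905 in LC (-1.90 ± 0.73, adjusted p = 0.236). Ndufb8, in the membrane arm, scored -0.746 and -0.775 in LA against 0.904, 0.703 and -0.113 in LC (-1.26 ± 0.92, adjusted p = 0.462). Its L84 pools disagreed, at 1.96 and -0.930. In L60, Ndufa4 scored -0.837 and -0.399 against -0.330, 1.0 and 1.09 in LC (-1.20 ± 0.85, adjusted p = 1). The gene is named for complex I and has since been assigned to complex IV. A pair of accessory subunits lay above LC in L60. Ndufa2 scored 0.945 and 0.724 in L60 against 0.346, 0.345 and -0.603 in LC (0.81 ± 0.93, adjusted p = 1), and Ndufs4, of the NADH module, scored 0.350 and 0.559 in L60 against -0.500, 0.109 and 0.122 in LC (0.54 ± 0.62, adjusted p = 1). In these 3 genes the L60 arrays did not overlap with the LC arrays, and no L60 difference passed the test.

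Complex I was also the complex in which both L84 pools lay farthest apart, at a mean score of 1.15 on L84 1 and -0.397 on L84 2, against 0.0808 to 0.336 on the LC arrays. The remaining complex I subunits not named here scored between -1.91 (Ndufc1) and 0.50 (Ndufa6) in LA relative to LC. Ndufa1 (0.22) and Ndufa6 were the complex I genes that did not score lower in LA.

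**Figure D3:**
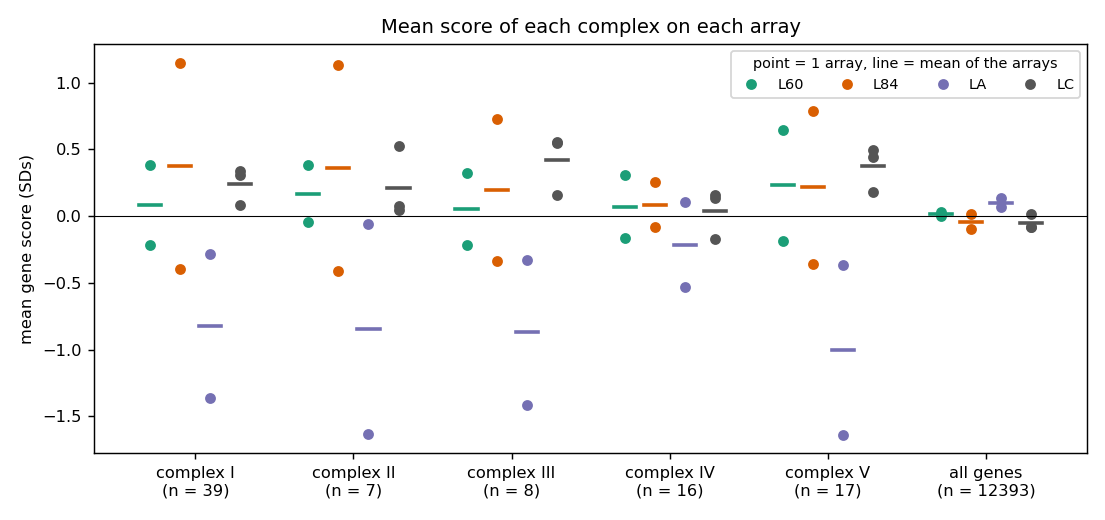
Mean score (vertical axis, SDs) of the genes of each complex and of all genes, with 1 point per array and a line at the group mean, for L60, L84, LA and LC. LA 2 is the lowest point and L84 1 the highest in complexes I, II, III and V, and the spread is narrower in complex IV.

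Complex II, succinate dehydrogenase, links the tricarboxylic acid cycle to the chain. Its 7 genes, which include the assembly factors Sdhaf1, Sdhaf2 and Sdhaf4, all scored lower in LA than in LC. The median difference was -1.03. LA arrays lay below all LC arrays in 3, namely Sdhb and the assembly factors Sdhaf1 and Sdhaf4, against 21% of all genes. Sdhb, the iron-sulphur subunit whose promoter window is printed above, scored -0.459 and -1.84 in LA, 0.0182 and 0.513 in L60, 0.215 and -1.03 in L84, and 0.280, 0.800 and 1.51 in LC. Both LA and both L84 arrays lay below all LC arrays, with differences of -2.02 ± 0.66 (adjusted p = 0.189) and -1.27 ± 0.66 (adjusted p = 0.539). Sdha, the catalytic flavoprotein, scored -0.132 and -1.90 in LA against 0.329, -0.207 and -0.0767 in LC (-1.03 ± 0.79, adjusted p = 0.480), so the groups overlapped. Among the subunits of the enzyme itself, the membrane anchors Sdhc and Sdhd differed least, by -0.56 ± 0.87 and -0.18 ± 0.98. Their LA pools disagreed in direction, at 0.772 and -1.5 for Sdhc and 0.475 and -1.22 for Sdhd, against -0.239 to 0.730 and -0.659 to 0.335 in LC. Without LA 2 both differences turned, to 0.58 and 0.67, and the median of the complex moved to -0.15, with 3 of its 7 genes higher than LC.

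Complex III, which carries electrons from ubiquinone to cytochrome c, had a median difference of LA from LC of -1.57, with 8 of 8 genes lower. LA arrays lay below all LC arrays in 4, against 21% of all genes. Without LA 2 the median was -0.64, with 7 of 8 lower. The core protein Uqcrc2 scored -0.466 and -1.69 in LA against 0.745, 0.901 and 0.652 in LC (-1.85 ± 0.75, adjusted p = 0.252). Its L60 arrays, at 0.0167 and -0.358, also lay below LC (-0.94 ± 0.75, adjusted p = 1). The small subunit Uqcrb scored -0.564 and -1.41 in LA and -0.182 and -0.200 in L60, against 0.957, 0.449 and 0.822 in LC. Its differences were -1.73 ± 0.53 in LA (adjusted p = 0.167) and -0.93 ± 0.53 in L60 (adjusted p = 1). The other core protein, Uqcrc1, overlapped with LC in LA, at 0.135 and -1.16 against -0.605, 0.891 and 0.843 (-0.89 ± 1.03, adjusted p = 0.628). The Rieske iron-sulphur protein Uqcrfs1 did too, at 0.0431 and -1.58 in LA against 0.00920, 0.421 and -1.29 in LC (-0.48 ± 0.92, adjusted p = 0.779), and without LA 2 its difference turned to 0.33. The value of Uqcrh, the hinge protein, was the same on 6 of the 9 arrays, LA 1 among them. It scored 0.110 on LA 1 and -2.49 on LA 2, and its difference of LA from LC was -1.84 ± 0.80.

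Complex IV, cytochrome c oxidase, was mixed. In LA, 9 of its 16 genes scored lower than in LC, with a median of -0.52. LA arrays lay below all LC arrays in 5 genes and above them in 4, against 21% and 27.8% of all genes. Without LA 2 the median was -0.10. The genes split by isoform, as a description of a grouping made with the results known. The 6 genes for tissue isoforms (Cox4i2, Cox6a2, Cox6b2, Cox7a1, Cox8b and Cox8c) had a median of 0.56 in LA, with 5 of 6 higher than LC, and the other 10 genes had a median of -0.88, with 8 of 10 lower. Without LA 2 these medians were 0.91 and -0.49.

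Cox6a1 and Cox6a2 encode the common and the striated muscle form of subunit 6A. Cox6a1 scored -0.981 and -1.60 in LA, -0.107 and 1.32 in L60, -0.356 and -0.192 in L84, and 0.353, 0.996 and 0.563 in LC. Cox6a2 scored 1.43 and 0.358 in LA, -1.09 and -0.798 in L60, 1.56 and 0.400 in L84, and -0.520, -1.01 and -0.329 in LC. The common form thus lay below all LC arrays in LA and L84, and the muscle form above them in both. The differences of Cox6a1 were -1.93 ± 0.49 in LA (adjusted p = 0.129) and -0.91 ± 0.49 in L84 (adjusted p = 0.555). Those of Cox6a2 were 1.52 ± 0.51 in LA (adjusted p = 0.194) and 1.60 ± 0.51 in L84 (adjusted p = 0.336). In L60 neither lay apart from LC, with differences of -0.03 for Cox6a1 and -0.32 for Cox6a2.

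Subunit 7A showed a like split in LA. Cox7a2, the common form, scored -0.632 and -2.13 in LA, 0.637 and 0.270 in L60, 0.409 and -0.481 in L84, and 0.559, 0.784 and 0.581 in LC. Cox7a1, the muscle form, scored 0.690 and -0.0390 in LA, -1.74 and -0.128 in L60, 1.84 and 0.626 in L84, and -0.150, -0.342 and -0.755 in LC. Cox7a2 lay below and Cox7a1 above all LC arrays in LA and L84. In LA they differed from LC by -2.02 ± 0.52 (adjusted p = 0.131) and 0.74 ± 0.64 (adjusted p = 0.530), and in L84 by -0.68 ± 0.52 (adjusted p = 0.670) and 1.65 ± 0.64 (adjusted p = 0.411).

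Subunit 8 has a common form, Cox8a, and a muscle form, Cox8b. Their promoter windows are printed with that of Cox6a1 because they differ in the motifs they hold. They were thus picked after the motifs were seen. The other pair did not differ, as the windows of Cox7a1 and Cox7a2 held none of the motifs searched, and Cox6a2 had no window. Capitals mark NRF1 motifs and CCGGAAG in Cox6a1 (chr5:115348909-115349208, minus strand), CCGGAAG in Cox8a (chr19:7217567-7217866, minus strand), and CAGCTG and TATAAA in Cox8b (chr7:140900397-140900696, minus strand), each on either strand.
Cox6a1: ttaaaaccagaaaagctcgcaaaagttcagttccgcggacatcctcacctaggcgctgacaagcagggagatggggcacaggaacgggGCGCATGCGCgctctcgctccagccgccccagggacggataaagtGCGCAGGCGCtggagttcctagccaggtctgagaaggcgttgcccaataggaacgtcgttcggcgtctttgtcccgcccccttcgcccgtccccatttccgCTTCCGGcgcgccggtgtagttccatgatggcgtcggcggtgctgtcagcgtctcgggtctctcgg
Cox8a: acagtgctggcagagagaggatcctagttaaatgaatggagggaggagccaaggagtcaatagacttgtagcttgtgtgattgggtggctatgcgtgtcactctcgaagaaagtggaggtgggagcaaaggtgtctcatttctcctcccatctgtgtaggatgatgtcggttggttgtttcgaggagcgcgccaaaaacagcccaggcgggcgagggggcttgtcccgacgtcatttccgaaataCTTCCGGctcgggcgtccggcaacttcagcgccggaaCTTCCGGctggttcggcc
Cox8b: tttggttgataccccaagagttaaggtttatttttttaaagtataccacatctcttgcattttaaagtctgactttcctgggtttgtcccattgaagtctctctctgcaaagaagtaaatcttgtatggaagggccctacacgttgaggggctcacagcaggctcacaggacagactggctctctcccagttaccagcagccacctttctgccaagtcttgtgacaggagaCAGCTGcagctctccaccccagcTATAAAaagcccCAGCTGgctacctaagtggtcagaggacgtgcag

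Cox8b scored 1.30 and 0.506 in LA, -1.58 and 0.386 in L60, 1.26 and -0.371 in L84, and 0.216, -0.559 and -1.16 in LC. LA arrays lay above all LC arrays, by 1.40 ± 0.87 (adjusted p = 0.399). Cox8a scored -0.104 and -0.612 in LA against -0.337, 0.436 and 1.13 in LC (-0.77 ± 0.59, adjusted p = 0.484), and the groups overlapped. Its 3 probe sets disagreed, with differences of -1.65 to 0.90 in LA.

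Subunit 4 did not split in this way. Cox4i2, a form known from lung and from hypoxia, scored -1.57 and -1.21 in L60, 0.169 and 1.31 in L84, -0.936 and 0.758 in LA, and 0.169, 0.628 and 0.674 in LC. Its L60 difference of -1.88 ± 0.62 was the largest of the 87 genes in L60, although its adjusted p was 1, at an unadjusted p of 0.0292. Cox4i1, the common form, scored 0.480 and -0.892 in LA against -2.04, 0.222 and 0.0914 in LC (0.37 ± 0.95, adjusted p = 0.838). Its sign in LA hung on single arrays, and the difference was -0.36 without LC 1, an array high in 18S, and -0.32 without LA 1.

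**Figure D4:**
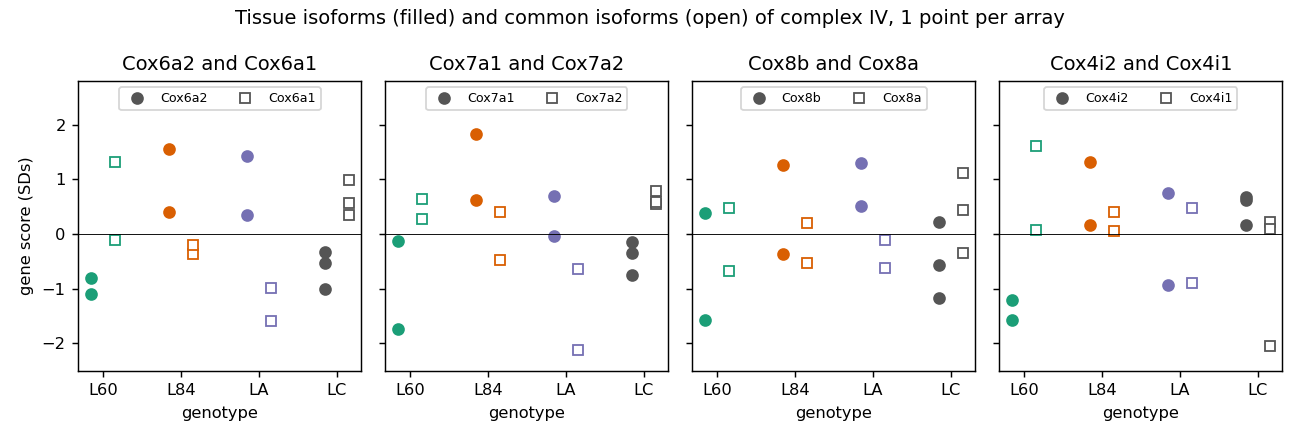
Gene scores (vertical axis, SDs) of 4 pairs of complex IV isoforms by genotype, with 1 point per array, filled for the tissue form and open for the common form. In LA the filled points of Cox6a2 (1.43 and 0.358) lie above the open points of Cox6a1 (-0.981 and -1.60), and in LC the order is the reverse.

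Of the remaining complex IV genes, Cox5a scored -0.386 and -1.34 in LA and -0.201 and -1.19 in L84, against 0.0332, 0.978 and 1.08 in LC. Its differences were -1.56 ± 0.55 in LA (adjusted p = 0.212) and -1.39 ± 0.55 in L84 (adjusted p = 0.420). Cox7c went the other way in LA, at 0.360 and 1.52 against 0.0220, -0.700 and -0.867 in LC (1.45 ± 0.62, adjusted p = 0.269). Its 2 probe sets correlated at 0.227. In 1 of them the value was the same (-0.689) on all LC arrays and L84 2. In the other the LA arrays, at -0.741 and 1.86, overlapped with LC. Cox7c was the gene least like the rest, with a correlation of -0.607 with the mean of the other 86 genes over the 9 arrays. Cox5b scored -0.483 and -0.594 in LA against 0.121, -0.282 and 0.310 in LC (-0.59 ± 0.28, adjusted p = 0.297). That mean covers 6 probe sets whose LA differences ran from -2.13 to 2.15.

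Complex V, ATP synthase, scored lower in LA in 17 of 17 genes, with a median of -1.53. LA arrays lay below all LC arrays in 13, against 21% of all genes. Without LA 2 the median was -0.79, with 16 of 17 lower. Atp5md, a small membrane subunit, scored -1.06 and -1.87 in LA, -0.230 and 0.377 in L60, 1.02 and -0.523 in L84, and 0.783, 0.530 and 0.977 in LC. The LA pools lay below all others, and the difference from LC was -2.23 ± 0.55 (adjusted p = 0.123). In the catalytic head, the beta subunit Atp5b scored -0.512 and -1.95 in LA against -0.326, 1.46 and 0.775 in LC (-1.87 ± 0.71, adjusted p = 0.235). The alpha subunit Atp5a1 scored -0.613 and -1.02 in LA and 0.798 and 0.381 in L60, against -0.0983, 0.132 and 0.203 in LC. It thus lay below LC in LA (-0.89 ± 0.46, adjusted p = 0.335) and above LC in L60 (0.51 ± 0.46, adjusted p = 1). Its 3 probe sets agreed poorly, at a median correlation of 0.156, and their L60 differences ran from -0.0512 to 1.14. The largest came from a score of 2.49 on L60 1, with -0.351 on L60 2.

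The gamma subunit Atp5c1, the rotating shaft, scored -1.05 and -0.438 in LA, 0.687 and 0.0878 in L60, 0.876 and 0.576 in L84, and -0.0543, -0.331 and -0.353 in LC. It lay below LC in LA, at a difference of -0.50 ± 0.28 (adjusted p = 0.362), and above LC in L60 by 0.63 ± 0.28 (adjusted p = 1) and in L84 by 0.97 ± 0.28 (adjusted p = 0.301). Atp5g2, 1 of 3 genes for the c ring, was ordered alike, at -0.534 and -0.893 in LA, 0.576 and 0.153 in L60, 1.57 and -0.0352 in L84, and -0.144, -0.286 and -0.403 in LC. Both genes have 2 probe sets that differ in direction in LA. In the stalk, Atp5pb scored -0.151 and -1.76 in LA, 0.0644 and 0.173 in L60, 0.250 and -1.08 in L84, and 0.285, 1.20 and 1.02 in LC. Each line lay below LC, at differences of -1.79 ± 0.67 in LA (adjusted p = 0.227), -0.72 ± 0.67 in L60 (adjusted p = 1) and -1.25 ± 0.67 in L84 (adjusted p = 0.552). The epsilon subunit Atp5e scored 0.137 and -2.04 in LA and -0.378 and -0.671 in L84, against 0.270, 0.820 and 0.405 in LC (-1.45 ± 0.80 and -1.02 ± 0.80).

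The 8 assembly factors and Cox7a2l, also counted in their complexes above, scored lower in LA in 9 of 9 genes, with a median of -1.06. LA arrays lay below all LC arrays in 5, against 21% of all genes. Ndufaf7 and Ndufaf5 modify other complex I subunits, as known from human cells. Ndufaf7 scored 2.02 and 0.823 in L84 and -1.51 and -0.390 in LA, against -0.684, 0.0216 and -0.363 in LC. Its L84 difference was the largest of the 87 genes in L84, at 1.76 ± 0.55 (adjusted p = 0.332). Ndufaf5 scored 2.21 and 0.146 in L84 and -1.35 and -0.876 in LA, against 0.0927, 0.396 and 0.146 in LC. Sdhaf2, which helps attach flavin to Sdha in yeast and human cells, scored 0.906 and 0.620 in L84 against -1.05, -0.225 and 0.420 in LC (1.05 ± 0.64, adjusted p = 0.599). Sdhaf4 scored -0.296 and -2.08 in LA and 0.729 and 0.809 in L60, against 0.656, -0.132 and 0.146 in LC (-1.41 ± 0.80 in LA and 0.55 ± 0.80 in L60).

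Between the lines, LA scored lower than L60 in 72 of the 87 genes (82.8%, against 45.5% of all genes) and lower than L84 in 82 (94.3%, against 46.4%), with medians of -1.07 and -1.10 against 0.16 and 0.12 over all genes. L84 and L60 differed by a median of 0.09, against -0.08 over all genes, with 40 of 87 lower in L84 (46.0%, against 53.4%). The sign of that median turned with the array, at -0.51 without L84 1 and 0.70 without L84 2, and the LA minus L60 median was -0.38 without LA 2. In limma 0 genes were called between LA and L60, LA and L84 or L84 and L60, where 0.629%, 0.0161% and 0.113% of all genes were called. With an unadjusted p under 0.05 there were 9, 10 and 3 genes, against 16.2%, 10.6% and 8.03% of all genes. With moderated variance 0 of the 87 genes and 0% of all genes were called, and 14, 15 and 3 had such a p, against 18.6%, 12.6% and 6.93% of all genes. LA arrays lay below both L60 arrays in 47 genes, against 23.7% of all genes, and above them in 5, against 26.8%. They lay below both L84 arrays in 27 genes, against 13.6%, and above them in 1, against 20%. The L84 arrays lay below both L60 arrays in 5 genes, against 17.5%, and above them in 7, against 12%. The LA and L84 comparison rested on 2 arrays, and without L84 1 and LA 2 its median was 0.14.

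Ndufs5 was again the gene with the largest difference of LA from L60 among those with arrays apart, at -2.11 (adjusted p = 0.0987), and its difference from L84 was -2.11 (adjusted p = 0.214). Sdhaf4 followed, at -1.96 from L60 (adjusted p = 0.355). Of LA over L60, Cox6a2 was higher by 1.84 (adjusted p = 0.228) and Cox8b by 1.5 (adjusted p = 0.473). Against L84, LA was lower in Ndufaf7 (-2.37, adjusted p = 0.354) and Ndufaf5 (-2.29, adjusted p = 0.395), and higher in Cox8c (1.73, adjusted p = 0.544), a testis form of subunit 8. L84 lay above L60 in Cox7a1 (2.17, adjusted p = 0.523) and Cox4i2 (2.13, adjusted p = 0.515), and below it in Atp5e (-1.25, adjusted p = 0.816) and Cox5a (-1.21, adjusted p = 0.717). No such difference passed the threshold. Over the mean of the 3 lines against LC, 0 genes were called in limma against 0.637% of all genes, and 3 had an unadjusted p under 0.05, against 13.3%. In the F test over the 4 genotypes 0 were called against 0.734%, and 8 had such a p, against 14.8%. With moderated variance both counts of calls were again 0, as they were over all genes (0%), with 4 and 9 at an unadjusted p under 0.05, against 13.7% and 17.2% of all genes.

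Scores of the 87 genes varied together over the arrays. The correlation of a gene with the mean of the other members over the 9 arrays had a median of 0.776, and was above 0.5 in 70 of 87 genes and below 0 in 6. Among the 12306 other genes the median correlation with the mean of the 87 was -0.01 and 23.6% were above 0.5. Other sets for shared machinery followed that mean as well. The median was 0.790 in proteasome subunit genes, 0.722 in mitochondrial and 0.595 in cytosolic ribosomal protein genes, with 73.7%, 70.3% and 58.5% above 0.5. By complex the median was 0.795 in I, 0.803 in II, 0.752 in III, 0.381 in IV and 0.827 in V, and it was -0.116 in the 6 tissue isoforms of complex IV. Atp5g3, a c ring gene, followed the mean most closely at 0.971. The points share 9 arrays, the pools on them and the standardisation, and LA 2 and L84 1 lie at the ends. Of the 46 genes with more than 1 probe set, all probe sets scored lower in LA in 31, they differed in direction in 14, and in Cox7c all were higher. The median of the genes' median correlations between their own probe sets was 0.553. Uqcrq, the complex III gene with discordant probe sets, had 4 whose LA differences ran from -1.76 to 1.44.

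Other large sets of genes for shared machinery had like medians in LA. The 74 mitochondrial ribosomal protein genes had a median difference from LC of -1.05, with 68 of 74 lower and LA arrays below all LC arrays in 38. The 41 cytosolic ribosomal protein genes had a median of -1.40, with 38 lower and 25 apart below. The 38 proteasome subunit genes had -1.43, with 32 lower and 22 apart below. Over all genes, 43.9% scored lower in LA and 21% had LA arrays apart below. Without LA 2 the medians of these sets were -0.62, -0.89 and -0.93. Lower scores in LA were thus also found in sets outside oxidative phosphorylation. In L84 the medians of these sets were -0.25, -0.70 and -0.32, against -0.00192 in the 87 genes, and in L60 they were 0.09, 0.26 and -0.24, against -0.15. None of these differences between sets was tested.

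Neighbouring pathways were read from lists set alongside the 87 genes. For the counts that follow, LA arrays lay below all LC arrays in 21% of all genes and above them in 27.8%. Cycs (cytochrome c, which carries electrons to complex IV) and Cyc1 (a cytochrome subunit of complex III outside the symbol rule) both lay below all LC arrays in LA. Cycs scored -0.899 and -1.77 in LA against 0.262, 0.869 and 0.785 in LC (-1.97 ± 0.40, adjusted p = 0.0881), and Cyc1 differed by -2.16 ± 0.58 (adjusted p = 0.139). In the tricarboxylic acid cycle and pyruvate dehydrogenase 13 of 17 genes scored lower in LA, with a median of -1.12. LA arrays lay below LC in 10 and above in 1. The mean of the 17 was 0.0195 on LA 1 and -1.32 on LA 2, against 0.119 to 0.179 in LC, so LA 2 held most of the difference. Examples were Mdh2, malate dehydrogenase (-1.95 ± 0.52, adjusted p = 0.140), and Pdhb of pyruvate dehydrogenase (-1.12 ± 0.32, adjusted p = 0.150). In fatty acid oxidation 11 of 16 scored lower, with a median of -1.0, 8 apart below and 3 above. The mean of the 16 was -0.0098 on LA 1 and -0.885 on LA 2, against 0.158 to 0.191 in LC. Among the lower genes were Cpt1a, which moves fatty acids into mitochondria (-1.52 ± 0.36, adjusted p = 0.115), and Acaa2 (-1.75 ± 0.63, adjusted p = 0.215).

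Of carriers and inner membrane proteins 12 of 15 scored lower in LA, with a median of -1.08. The mean of the 15 was -0.345 on LA 1 and -1.15 on LA 2, against 0.0114 to 0.407 in LC. LA arrays lay below all LC arrays in 8, against 21% of all genes. The import receptor Tomm20 differed by -2.14 ± 0.42 (adjusted p = 0.0843) and the ADP and ATP carrier Slc25a5 by -2.17 ± 0.46 (adjusted p = 0.0956). Of the regulators, 12 of 18 scored lower, with a median of -0.51 and 8 apart below, including Pprc1, a coactivator of mitochondrial genes (-2.0 ± 0.53, adjusted p = 0.137), and Gabpb1, the partner of GABPA (-1.16 ± 0.39, adjusted p = 0.193). Assembly factors outside the 87 genes were near 0, with 11 of 18 lower and a median of -0.18. Acad9 was the lowest p among them (-1.53 ± 0.51, adjusted p = 0.191), followed by Cox18 (-1.41 ± 0.81, adjusted p = 0.373). Glycolysis went the other way, with 14 of 18 genes higher in LA and a median of 0.92. LA arrays lay above all LC arrays in 12, against 27.8% of all genes. In L84 glycolysis was higher as well, in 17 of 18 genes, with a median of 1.06. Of these genes 6 had L84 arrays apart above LC, against 13.8% of all genes. Its mean scores were 0.699 and -0.0273 in LA and 1.41 and -0.142 in L84, against -0.542 to -0.195 in LC. Pfkm, the muscle phosphofructokinase, was higher by 1.95 ± 0.54 (adjusted p = 0.146), and Pgam1 differed by -2.20 ± 0.52 (adjusted p = 0.114). In none of these lists was a gene called in L60, L84 or LA against LC by limma, beside 0%, 0.565% and 1.8% of all genes.

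**Figure D5:**
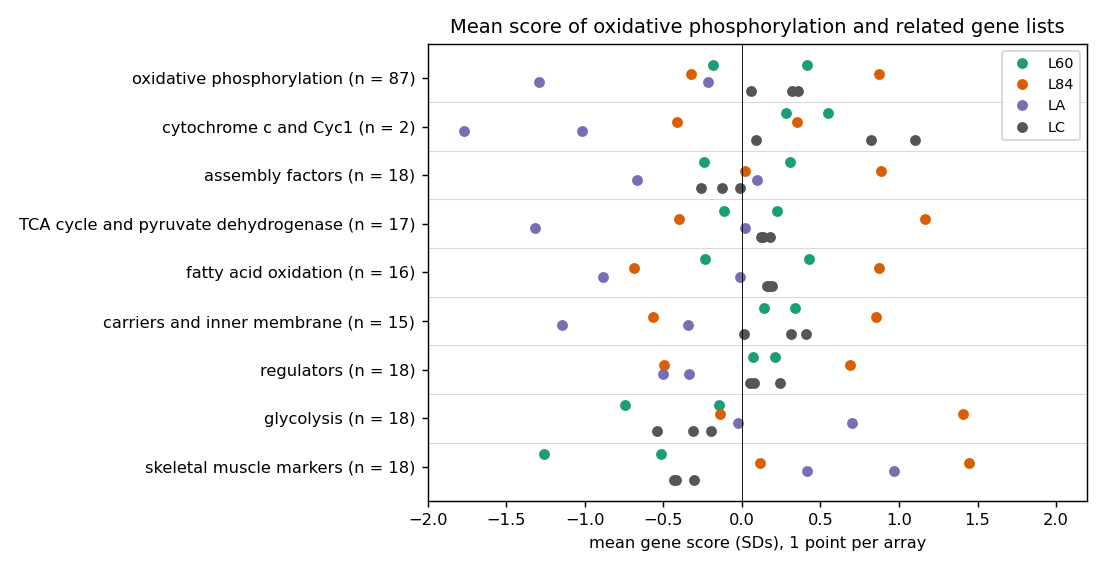
Mean score (horizontal axis, SDs) of the 87 genes, of the related pathway lists and of skeletal muscle markers, with 1 point per array, for L60, L84, LA and LC. Both LA points lie below all LC points for the 87 genes, cytochrome c and Cyc1, the tricarboxylic acid cycle, fatty acid oxidation, carriers and regulators, and above them for glycolysis and muscle, and both L84 points lie above LC for glycolysis and muscle too.

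Markers of cell types were read on the same arrays. The 18 skeletal muscle markers had mean scores of 0.966 and 0.417 in LA, 1.44 and 0.114 in L84 and -1.26 and -0.515 in L60, against -0.435 to -0.308 in LC. In LA 16 of 18 scored higher than LC and 11 had arrays apart above, and in L84 18 of 18 and 10. In L60 16 of 18 scored lower and 4 had arrays apart below. Over all genes, arrays lay apart above LC in 27.8% in LA and 13.8% in L84, and below LC in 10.8% in L60. The muscle forms Cox6a2, Cox7a1 and Cox8b and several glycolysis genes, such as Pfkm and Eno3, belong to muscle as well, and the part of muscle in their scores was not tested. The 8 hair shaft keratins scored lower in LA and L84, all 8 called in limma in each, against 1.8% and 0.565% of all genes. Their mean scores were -0.978 and -0.922 in LA and -1.04 and -0.975 in L84, against 1.09 to 1.18 in LC. In L60 all 8 also scored lower with arrays apart below LC, at means of 0.193 and 0.351. In limma 0 of them were called in L60, beside 0% of all genes. The calls in LA and L84 were lost with moderated variance, where 0 of 12393 genes were called in either line. With the replicate block 1 gene in all was called in LA and 3 in L84. Of 7 proliferation genes, 7 scored lower in LA and 2 were called, against 1.8% of all genes. Their mean scores in LA were -1.24 and -1.15, against 0.285 to 0.468 in LC. The 8 adipocyte markers had means of 0.301 and -0.716 in LA, and -0.683 and -0.762 in L84, against 0.474 to 0.572 in LC. The 4 brown fat markers had means of 0.263 and 0.519 in LA, 0.168 and 0.683 in L84 and -0.432 and -0.443 in L60, against -0.476 to 0.144 in LC. Brown fat also expresses Cox7a1. Of 7 keratinocyte markers 6 scored higher in LA, 2 of them called, against 1.8% of all genes. The means of the 7 were 0.406 and 0.0252 in LA, against -0.847 to -0.628 in LC. Both other lines also had 6 of 7 higher, at means of 0.529 and -0.280 in L60 and 0.995 and 0.474 in L84. Of these, 0 were called in L60 and 1 in L84, against 0% and 0.565% of all genes. Of 5 macrophage markers 5 scored higher in LA, at 1.38 and 0.768 against -0.574 to -0.372, and none was called. The 6 fibroblast markers all scored higher in LA, at means of 0.858 and 0.526 against -0.327 to 0.0890 in LC, and none was called. Of 5 sebocyte markers 5 scored higher in L84, at means of 1.49 and 0.887, and 4 in LA, at 0.149 and -0.0501, against -0.752 to -0.435 in LC, and none was called. The part of these cell types in the scores of the 87 genes was not tested. In whole skin, fewer cells of a type and less RNA per cell cannot be told apart, and the scores give no level at which a marker is absent.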

How the data were processed

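Expression was measured on 9 Affymetrix arrays, 1 per RNA pool, with 30 mg of skin extracted per the labels. Per the submitters' processing notes, RMA was used (version not given in the sources used here). The authors deposited a score for 22690 probe sets, each with mean 0 and SD 1 over the arrays. Whether values were on a log scale before that is not given in the sources used here. Probe sets naming several genes (691), none (1555) or controls (64) were left out, and a gene's score was the mean of its 1-gene probe sets. Such a mean can have an SD below 1. A filter on dim genes needs a level and was not run. The number of arrays limits the precision.

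In R 4.3.3, limma 3.58.1 gave a mean for each genotype from all 9 arrays, with 5 residual degrees of freedom and no variance moderation. Every p was adjusted by Benjamini-Hochberg over 12393 genes, and a gene was called under 0.05. The fit was tested on simulated data. Arrays are called apart where all of a line lay on 1 side of all of the group it is set against. No array was dropped or imputed in the values given as results.

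The genes named are every called member, the 5 largest differences each way from LC and the 2 each way between lines among members with arrays apart, a list of core subunits and isoform pairs, and from each pathway list up to 4 called genes or the 2 of lowest p. Other members are named for a tie, a correlation, discordant probe sets or an end of a range, and were chosen after their values were seen. The members and lists were chosen with earlier results of these data known. Alternatives were each array left out, a replicate block, only the arrays compared, moderated variance, array weights, 1 probe set per gene, single probe sets, array medians of 0, no arrays high in 18S, no arrays of widest scores, and subunits alone.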

Additional observations from a re-analysis of the deposited data

Results flagged for a closer look

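In 5 of the 87 genes (5.75%, against 5.54% of all genes) 2 lines lay on opposite sides of LC on all their arrays. Atp5a1 was below LC in LA and above it in L60, and LA minus L60 was -1.40 (adjusted p = 0.285 in limma). Its 3 probe sets differed in direction in L60. Atp5c1 was below LC in LA and above it in L60 and L84, with differences of -1.13 from L60 (adjusted p = 0.197) and -1.47 from L84 (adjusted p = 0.300). Atp5g2 was placed alike, with -1.08 from L60 (adjusted p = 0.394) and -1.48 from L84 (adjusted p = 0.455). Ndufv3, an accessory subunit of complex I, was below LC in LA and above it in L84, at -2.13 (adjusted p = 0.438). Sdhaf4 was below LC in LA and above it in L60, at -1.96 (adjusted p = 0.355). None of the 7 differences passed the threshold, and the share of genes is near that of all genes.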

How the results depend on the processing

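With 2 pools in each line, 1 array could decide a median. Leaving out each array in turn, the median difference from LC ran from -0.44 to 0.24 in L60, from -0.61 to 0.69 in L84 and from -1.70 to -0.53 in LA, and between lines from -0.51 to 0.70 for L84 minus L60, from -1.63 to -0.38 for LA minus L60 and from -1.82 to -0.38 for LA minus L84. Without the arrays high in 18S the medians were -0.75 for L84 minus LC, -0.82 for L84 minus L60 and -0.38 for LA minus L84. Without L84 1 and LA 2 they were -0.38 for LA minus L60 and 0.14 for LA minus L84. The cause was not tested.

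The 1 call in LA, Ndufs5, gave 0 calls when any 1 array was left out (range 0 to 0). It also gave 0 with the replicate block, with only the arrays compared, with moderated variance, with every probe set on its own, without the arrays high in 18S and without the arrays of widest scores. Under array weights, 1 probe set per gene, array medians of 0 and subunits alone it stayed at 1. LA minus L84 gave 0 to 1 calls, with 1 without L84 replicate 2. With the replicate block Ndufs5 differed by -2.11 (adjusted p = 0.247). Arrays of 1 number correlated at -0.08 to 0.35 in their deviations from group means. Between lines of 2 arrays the deviations mirror each other, so both numbers give 1 value. The labels give no shared source and not every pair correlated above 0.1, so the numbers were not taken as pairs.

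Of 48 differences of named genes over 816 values, 43 never turned sign. Those that turned, with the LA difference from LC, were Cox4i1 (-0.36 to 1.06 over single arrays left out, -0.15 under array weights, -0.36 without the arrays high in 18S), Cox4i2 (-1.43 to 0.27), Sdhc (-1.69 to 0.58, and 0.58 without the widest arrays), Sdhd (-1.03 to 0.67, 0.078 with the replicate block and 0.67 without the widest arrays) and Uqcrfs1 (-1.30 to 0.33, and 0.33 without the widest arrays).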
